A study of Sus scrofa with 2 samples.

Results

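Leucine-rich and hyalectan proteoglycan cores were examined in PSI, a smooth muscle cell clone derived from the pig ileum, the far end of the small intestine. The genes were chosen by name: 7 small leucine-rich proteoglycans (BGN, DCN, ASPN, FMOD, LUM, PRELP and OGN), the hyalectans VCAN and ACAN, and the membrane-spanning core CSPG4. All 10 were found among the 25880 gene identifiers of the table. RNA-seq libraries were made in duplicate from the clone, grown in DMEM with 10% FBS and antibiotics, giving 1 group of 2 libraries, here replicates 1 and 2. All cells come from 1 clone, with no group of another treatment, tissue or cell type, so no test between conditions could be made. No source says that the duplicates were separate cultures, so every SD below is the spread of these libraries alone, which may be technical. Levels are FPKM, fragments scaled by the length of the gene and by the library total, so that genes of different length can be set side by side.

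Proteoglycans are proteins that carry long, negatively charged sugar chains called glycosaminoglycans. Small leucine-rich proteoglycans are secreted cores folded from leucine-rich repeats. They coat collagen fibrils and set their spacing and width, and several bind growth factors. Hyalectans are much larger: they bind hyaluronan at the amino-terminal end and carry chondroitin sulphate along a central stretch, forming hydrated aggregates between cells. In the gut wall and in vessels, smooth muscle cells make part of the matrix around them, and members of both families are known products of such cells.

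These cores differed widely in level in the PSI clone. BGN had 215 ± 0.963 FPKM (SD, n = 2), FMOD 102 ± 1.75, CSPG4 101 ± 2.06 and VCAN 18.8 ± 0.380. DCN, LUM and ASPN stood between 1.16 and 2.20 FPKM, OGN had 0.419 ± 0.200, PRELP had 0.0278 ± 0.0182, and ACAN was listed at 0. A mean of 10 FPKM or more was reached by 4 of the 10 members and by 21.7% of all identifiers. The share of identifiers with a symbol, which all members have, was not computed at that level. The other 6 members lay under 3 FPKM. Together they held 1.24% and 1.22% of the summed FPKM of the 10 genes in replicates 1 and 2. Detection was set at 1 FPKM, to be reached in each library. By that rule 7 of the 10 members were detected, where 40.9% of all identifiers and 61.5% of those with a gene symbol were. The median of the members was 1.54 on the log2(FPKM + 1) scale, above the median of all identifiers (0.223) and below that of identifiers with a symbol (2.29), so its place depends on the background chosen.

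**Figure D1:**
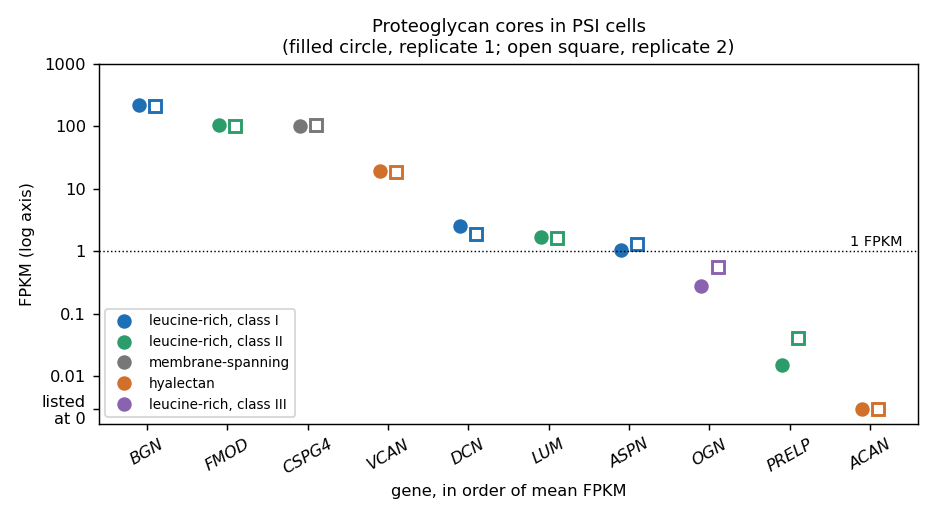
FPKM of each proteoglycan core (vertical log axis) in replicate 1 (filled circles) and replicate 2 (open squares), with genes ordered by mean FPKM and coloured by class; the dotted line marks 1 FPKM and genes listed at 0 are drawn at the foot. BGN, FMOD, CSPG4 and VCAN lie at 18.5 FPKM or more in both libraries, and the other 6 genes lie at 2.52 or less.

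Replicate 1 had a recovered library total of 35176565 and replicate 2 of 32217729, at which a lone read in 1 kb of gene gives 0.0284 or 0.0310 FPKM. Smooth muscle markers agreed only in part with the label: ACTG2 (479 ± 15.0 FPKM), CNN1 (254 ± 1.02) and LMOD1 (45.1 ± 0.0997) were abundant, DES had 2.90 ± 0.231 and MYH11 0.491 ± 0.0433, and MYOCD was listed at 0. The pairing of the MYH11 identifier with its symbol is uncertain, since none of 4 genes with neighbouring identifier numbers lay on the chromosome that RefSeq gives for MYH11. Markers of epithelium (CDH1, VIL1), endothelium (CDH5, KDR, TIE1) and leukocytes (PTPRC, CD3E, LYZ) were listed at 0, and EPCAM had 0 in replicate 1 and 0.00748 in replicate 2. Low values need care, since RPL29, a ribosomal protein gene, was listed at 0 and TPI1, a glycolytic enzyme gene, had 0.324 ± 0.142. In a bulk sample, fewer cells that express a gene and less RNA per cell cannot be told apart.

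Among the class I leucine-rich cores, BGN stood far above its nearest relative. BGN encodes biglycan, which carries chondroitin or dermatan sulphate chains, binds collagen and transforming growth factor beta, and can signal through Toll-like receptors when released from the matrix. Its level was 215 FPKM (29086 recovered reads) in replicate 1 and 214 FPKM (26471 reads) in replicate 2. The libraries differed by a log2 ratio of -0.01, and BGN ranked 216 among all identifiers. DCN encodes decorin, the closest relative of biglycan and a typical product of fibroblasts, which binds collagen fibrils and sequesters growth factors. Its level was 2.52 FPKM (131 reads) in replicate 1 and 1.89 FPKM (90 reads) in replicate 2. Replicate 1 was the higher, and the 95% counting intervals of the libraries, from 2.10 to 2.99 and from 1.52 to 2.32 FPKM, overlapped. The ratio of BGN to DCN was 85.6 in replicate 1 and 113 in replicate 2. ASPN encodes asporin, a class I core with an aspartate-rich stretch that binds collagen and is known to inhibit transforming growth factor beta in cartilage. It had 1.05 FPKM (192 reads) in replicate 1 and 1.27 FPKM (214 reads) in replicate 2, just above the detection level in both. The counting interval of ASPN in replicate 1, from 0.904 to 1.21 FPKM, includes the detection level. That of replicate 2, from 1.11 to 1.46, lies above it. BGN held 98.4% and 98.5% of the summed FPKM of the 3 class I genes.

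The class II cores showed the same kind of imbalance, with a different gene at the top. FMOD encodes fibromodulin, a keratan sulphate proteoglycan that binds type I collagen fibrils and guides their crosslinking. Its level was 104 FPKM (24053 reads) in replicate 1 and 101 FPKM (21504 reads) in replicate 2. LUM encodes lumican, a keratan sulphate core that shares collagen-binding with fibromodulin and is needed for a clear cornea in mice. It had 1.65 FPKM (377 reads) in replicate 1 and 1.61 FPKM (337 reads) in replicate 2, and its libraries lay close together. The ratio of FMOD to LUM was 62.9 in both libraries. PRELP, which encodes prolargin, a core whose basic amino terminus binds heparan sulphate and links basement membranes to collagen, was near 0. It had 0.0149 FPKM from 2 reads in replicate 1 and 0.0407 from 5 reads in replicate 2, with counting intervals from 0.00181 to 0.0538 and from 0.0132 to 0.0950. OGN, the class III core osteoglycin or mimecan, which regulates collagen fibril growth, had 0.277 FPKM (33 reads) in replicate 1 and 0.560 FPKM (61 reads) in replicate 2. Its counting intervals, from 0.191 to 0.390 and from 0.428 to 0.719, did not overlap, and neither library reached the detection level.

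Of the hyalectans, VCAN was well above the detection level and ACAN was listed at 0. VCAN encodes versican, the hyalectan of vessel walls and other soft tissue, which binds hyaluronan and loosens cell adhesion. It had 19.0 FPKM (4021 reads) in replicate 1 and 18.5 FPKM (3579 reads) in replicate 2. ACAN, which encodes aggrecan, the hyalectan of cartilage, was at 0 in both libraries, as were 36.9% of all identifiers. That share was not computed for identifiers with a symbol. The length of a gene at 0 cannot be recovered, so no upper limit is given. Markers of cartilage cells were low beside it. Of the 8 measured, 1 was detected, against 40.9% of all identifiers and 61.5% of those with a symbol. Their summed level was 1.75 and 1.89 FPKM, and COL11A2, MATN1 and SNORC were listed at 0. MATN3 had 0.285 ± 0.0177, COL2A1 0.0924 ± 0.0443, COL9A1 0.0153 ± 0.00806, and COMP 0 in replicate 1 and 0.0137 in replicate 2. The detected marker was SOX9, a transcription factor that drives ACAN in cartilage, at 1.42 ± 0.0199.

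CSPG4 encodes a chondroitin sulphate proteoglycan that spans the plasma membrane, binds type VI collagen and acts as a co-receptor for growth factors. It marks pericytes, vascular smooth muscle and the precursors of oligodendrocytes. Its level was 100 FPKM (27990 reads) in replicate 1 and 103 FPKM (26381 reads) in replicate 2. Replicate 2 was the higher by a log2 ratio of 0.04. Of 6 pericyte markers, 3 were detected, against 40.9% of all identifiers and 61.5% of those with a symbol. The 6 had a summed level of 67.4 and 68.7 FPKM. PDGFRB, a platelet-derived growth factor receptor, had 44.3 ± 1.30, MCAM 14.5 ± 0.648 and NOTCH3 9.16 ± 0.251. The others were at or near 0: RGS5 had 0.00511 in replicate 1 and 0 in replicate 2, KCNJ8 0 and 0.00613, and ABCC9 was listed at 0. CSPG4 stood at 2.30 and 2.27 times PDGFRB. None of the 3 measured markers of glia and oligodendrocyte precursors was detected: SOX10 had 0.137 FPKM in replicate 1 and 0.140 in replicate 2, and OLIG1 and OLIG2 were listed at 0.

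In the order of mean FPKM, BGN was followed by FMOD, CSPG4, VCAN, DCN, LUM, ASPN, OGN, PRELP and ACAN. Of the 9 pairs of neighbours in this order, which was set by the same values, 8 had libraries that did not overlap. The exception was FMOD and CSPG4, whose means differed by 1.02 FPKM and whose order changed between the libraries: FMOD was at 1.04 times CSPG4 in replicate 1 and at 0.984 times in replicate 2. For DCN and LUM, the lower library of DCN stood at 1.89 and the higher library of LUM at 1.65 FPKM. Their means differed by 0.572 FPKM, little more than the SD of DCN (0.445). PRELP and ACAN lay apart on the 2 and 5 reads of PRELP alone. BGN took 48.5% and 48.4% of the summed FPKM of the 10 genes in replicates 1 and 2, FMOD 23.4% and 22.9%, CSPG4 22.5% and 23.3%, and VCAN 4.29% and 4.19%. All 10 together made up 0.120% of the summed FPKM of the table in each library.

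**Figure D2:**
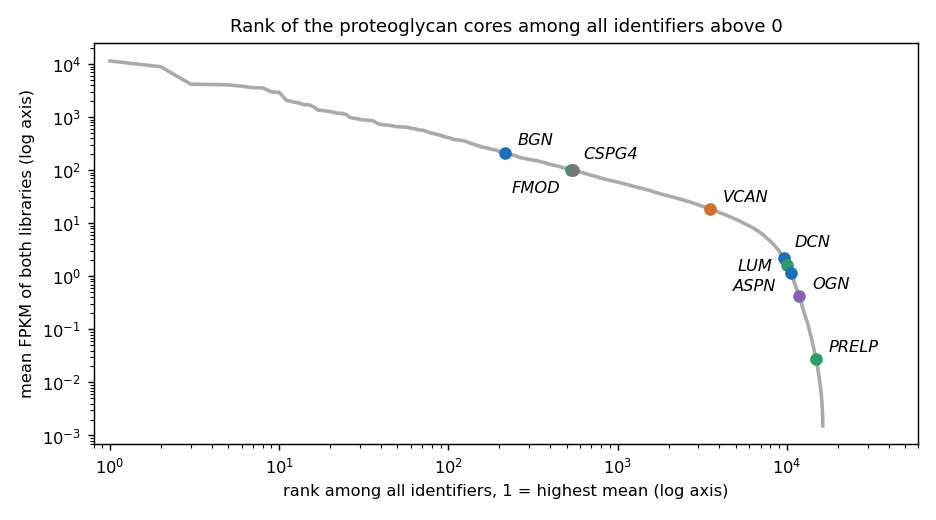
Mean FPKM of every identifier above 0 (grey line) against its rank, both on log axes, with the proteoglycan cores as points coloured by class. BGN ranked 216, FMOD 532, CSPG4 543 and VCAN 3509, whereas DCN, LUM, ASPN, OGN and PRELP lie on the steep part of the curve, at ranks from 9585 to 14871.

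For each gene, the recovered reads of replicates 1 and 2 were set against each other in an exact binomial test, two-sided, adjusted by Benjamini-Hochberg over 16327 genes. No condition is compared here, and reads that are a fraction of the true ones make a p-value too large. It called 0 of the 9 members with reads at an adjusted p under 0.05, where 1.11% of all genes were called. Genes set beside the members were among those called: COL1A1, COL1A2, COL5A1, COL6A1, COL6A2, COL18A1 and ACTG2. Their library differences were small, from -0.0636 (ACTG2) to 0.0704 (COL18A1) on the log2(FPKM + 1) scale. Without adjustment, 4 of the 9 had a p under 0.05, where 10.2% of all genes did. They were CSPG4 (adjusted p = 0.0623, exact binomial test) and OGN (adjusted p = 0.0642), both higher in replicate 2, and FMOD (adjusted p = 0.241) and DCN (adjusted p = 0.422), both higher in replicate 1. Of the 9, 5 were lower and 4 higher in replicate 2. The abundant members differed little, by 1.01-fold for BGN, 1.02-fold for FMOD and 1.03-fold for CSPG4 and VCAN, and the members with few reads differed more, by 1.33-fold for DCN, 2.02-fold for OGN and 2.73-fold for PRELP. The coefficient of variation was 0.449% for BGN and 47.7% for OGN, where the median over identifiers with a mean of 1 FPKM or more was 2.62%.

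**Figure D3:**
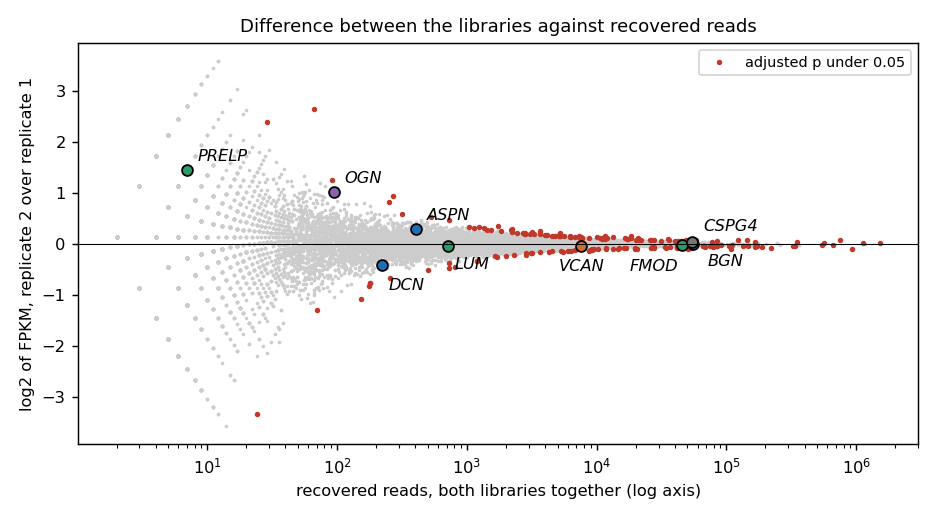
Log2 ratio of FPKM, replicate 2 over replicate 1, against the recovered reads of both libraries together (log axis), for identifiers above 0 in both libraries (grey), those with an adjusted p under 0.05 (red) and the proteoglycan cores (outlined points). BGN, FMOD, CSPG4 and VCAN, with the most reads, lie close to the zero line, and PRELP and OGN, with few reads, lie farthest above it.

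Several leucine-rich cores lie next to each other in the RefSeq annotation of Sscrofa11.1. DCN (ENSSSCG00000000915) lies on chromosome 5 from 91678601 to 91713925 and LUM (ENSSSCG00000000916) from 91748871 to 91756381, with 34.9 kb and no annotated gene between them. KERA and EPYC, cores of cornea and of cartilage, follow on the same stretch and were listed at 0. FMOD (ENSSSCG00000015270) lies on chromosome 9 from 64062995 to 64073853 and PRELP (ENSSSCG00000015271) from 64190978 to 64207008. These neighbours, 117 kb apart with no annotated gene between them, differed more than DCN and LUM did: FMOD was at 102 FPKM and PRELP at 0.0278. OPTC, a core of the eye that lies 4.47 kb beyond PRELP, was listed at 0, and ATP2B4, a calcium pump gene farther on, had 60.1 ± 0.319. OGN (ENSSSCG00000034607) lies on chromosome 3 from 42116521 to 42135940 and ASPN (ENSSSCG00000008072) from 42165553 to 42192902, with OMD between them and ECM2 beyond. All 4 genes of this cluster had low levels, OGN 0.419, OMD 0.822 ± 0.105, ASPN 1.16 ± 0.161 and ECM2 1.14 ± 0.0421 FPKM. They lie inside the span of CENPP, a centromere gene with 12.4 ± 0.272 FPKM, so reads from CENPP transcripts could enter their values or be lost to them; this was not tested. NOL8 (14.6 ± 1.06) and IPPK (15.1 ± 0.160), at the ends of the cluster, stood at a level similar to that of CENPP.

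**Figure D4:**
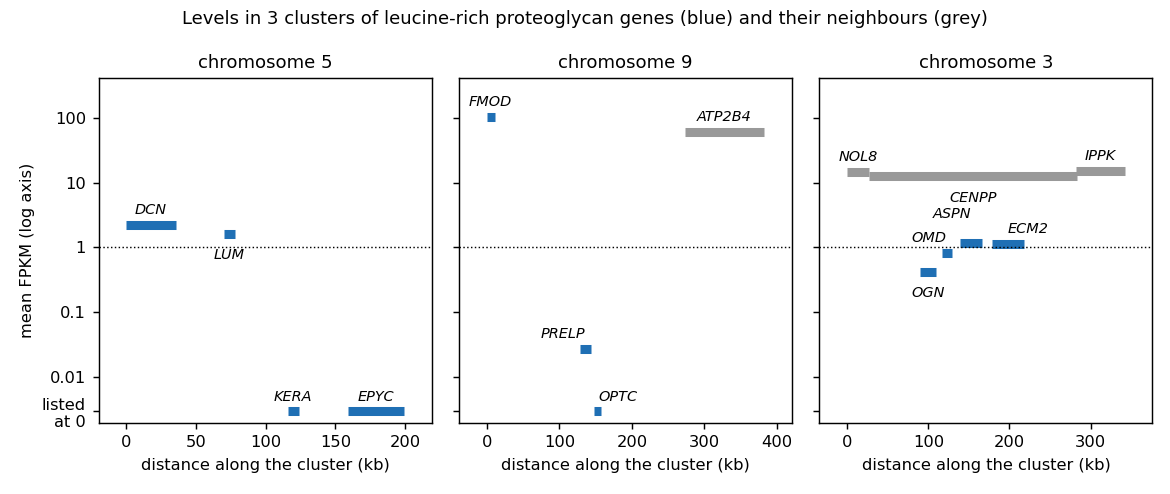
Mean FPKM (log axis) of genes in 3 clusters of small leucine-rich proteoglycan genes (blue) and of genes beside them (grey), drawn to scale along each cluster in kb from the start of its first gene; the dotted line marks 1 FPKM and genes listed at 0 are drawn at the foot. FMOD, at 102 FPKM, stands apart from PRELP and OPTC beside it, and the genes on chromosomes 5 and 3 lie at 2.20 FPKM or less, apart from the grey genes.

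BGN (ENSSSCG00000012766) lies on chromosome X from 124282048 to 124295450. VCAN (ENSSSCG00000014136) lies on chromosome 2 from 91682177 to 91811674, ACAN (ENSSSCG00000001832) on chromosome 7 from 54449830 to 54520606 and CSPG4 (ENSSSCG00000001873) on the same chromosome from 57949182 to 57988602. All 10 genes are protein-coding, and each value is for all counted exons of a gene together. The counted lengths recovered from the values ran from 1480 bp for DCN to 7957 bp for CSPG4. They are the shortest that give whole reads, so that of VCAN (6001 bp), for example, may be a fraction of the true one. Values and coordinates were joined by symbol. For 9 of the 10, genes with neighbouring identifier numbers lay on the chromosome that RefSeq gives for the member, and for OGN, none of 4 such genes did. Several genes named outside the members also had no such neighbour on their chromosome, so their pairing could not be checked by position. Among them were COL1A1, COL18A1, COL6A3, PDGFRB, NOTCH3, EGFR, MYOCD, PODN and ECM2. The same held for LMOD1, CHPF, UGDH, B4GALT1, NCAN and HAPLN3. HAS2 and COL6A1 had no RefSeq position and COL6A2 no known chromosome, so their pairing was not checked either.

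Of the other small leucine-rich genes, 3 of the 10 measured were detected, against 40.9% of all identifiers and 61.5% of those with a symbol. TSKU, which encodes tsukushi, a secreted modulator of Wnt and bone morphogenetic protein signals, had 41.8 and 40.7 FPKM in replicates 1 and 2. PODN, which encodes podocan, a core described in vascular smooth muscle, had 9.68 and 9.66 FPKM, and ECM2 was the third. The counting intervals of ECM2, from 0.842 to 1.44 and from 0.883 to 1.53 FPKM, both include the detection level. OMD, NYX (0.681 ± 0.191), CHAD (0.472 ± 0.00396) and PODNL1 (0.148 ± 0.0697) were under 1 FPKM, and KERA, EPYC and OPTC were listed at 0. Over all 17 leucine-rich genes, 8 were detected, against 40.9% of all identifiers and 61.5% of those with a symbol. Of the 17, 3 (BGN, FMOD and TSKU) had a mean of 10 FPKM or more, where 21.7% of all identifiers did. The share at that level was not computed for identifiers with a symbol.

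Each of the 4 hyalectan genes lies beside or near a gene for a link protein, which locks a hyalectan onto hyaluronan. HAPLN1 lies 45.8 kb from VCAN and had 0.702 ± 0.0781 FPKM, below the detection level. HAPLN3 overlaps ACAN by 817 bp and had 1.72 ± 0.0898. The brain hyalectans NCAN (0.00885 ± 0.000550) and BCAN (0.0438 ± 0.0194) were near 0, as was HAPLN2 (0.0913 ± 0.0379). The identifier paired with HAPLN4, a link protein known from brain, had 47.9 and 48.9 FPKM from 8229 and 7696 reads, at 2.51 and 2.64 times VCAN. This pairing could not be checked by position, since none of 3 genes with neighbouring identifier numbers lay on its chromosome.

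Hyaluronan itself, the chain that VCAN binds, is spun out at the plasma membrane by hyaluronan synthases. HAS2 had 17.4 ± 0.379 FPKM, at 0.897 and 0.952 times VCAN, and HAS1 had 0.497 ± 0.200. HAS3 was not analysed here. Of 13 measured genes of hyaluronan synthesis, binding and breakdown, 6 were detected, against 40.9% of all identifiers and 61.5% of those with a symbol. The highest were CD44, the main hyaluronan receptor (118 ± 2.95), UGDH, which makes a sugar precursor (40.4 ± 0.708), HYAL2 (27.3 ± 0.131) and HMMR (18.9 ± 0.686). TNFAIP6 and the heavy chain genes ITIH1, ITIH2 and ITIH3, whose products bind hyaluronan in inflamed tissue, were listed at 0. Of 10 known protein partners of hyalectans, 4 (40%) were detected, near the 40.9% of all identifiers and below the 61.5% of those with a symbol. They were ITGB1, an integrin chain (650.1 ± 8.41), TNC, the matrix glycoprotein tenascin-C (608 ± 3.45), FBN1, the microfibril protein fibrillin-1 (126 ± 0.341), and EGFR (13.9 ± 0.424). The fibulin partners FBLN1 (0.0793 ± 0.0364) and FBLN2 (0.0443 ± 0.0292) were near 0.

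Of 11 measured proteinases that cut hyalectans or other cores, 6 were detected, against 40.9% of all identifiers and 61.5% of those with a symbol. MMP14, a membrane-bound metalloproteinase that can shed CSPG4, had 150.2 ± 0.471 FPKM, and MMP2 had 57.8 ± 0.125. ADAMTS4, an aggrecanase that also cuts versican, had 32.7 ± 0.229, and ADAMTS1 had 2.76 ± 0.00192. ADAMTS5, the other main aggrecanase, had 0.864 ± 0.0491, so ADAMTS4 stood at 39.6 and 36.2 times its level.

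Genes that build the sugar chains were mostly detected, where 40.9% of all identifiers and 61.5% of those with a symbol were. For chondroitin and dermatan sulphate, 18 of 21 were detected, with a median of 3.74 on the log2(FPKM + 1) scale. The median of all identifiers was 0.223 and that of identifiers with a symbol 2.29. The chain polymerase genes CHPF (68.9 ± 0.401) and CHSY1 (68.5 ± 1.12) were the highest, ahead of DSE, the epimerase that turns chondroitin into dermatan sulphate (42.6 ± 0.514), and UST, a sulphotransferase (35.9 ± 0.0934). For keratan sulphate, the chain of fibromodulin and lumican, 5 of 8 genes (62.5%) were detected, with a median of 2.61. Both lay near the values of identifiers with a symbol. B3GNT2 (29.6 ± 1.08), B4GALT1 (16.0 ± 0.362), B4GALT4 (13.5 ± 0.662) and ST3GAL1 (6.27 ± 0.0386) led, and these also act on other glycans, while of the sulphotransferases CHST2 had 4.10 ± 0.255, CHST1 0.0329 ± 0.00204 and CHST4 0 in replicate 1 and 0.0120 in replicate 2.

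Of the collagens, growth factors and receptors that leucine-rich cores bind, 22 of 25 measured genes were detected. The share was 40.9% over all identifiers and 61.5% over those with a symbol. The median of the 25 was 5.56 on the log2(FPKM + 1) scale, where that of identifiers with a symbol was 2.29. COL1A1 (3608 ± 29.0 FPKM) and COL1A2 (3554 ± 20.5), the chains of type I collagen, led, followed by COL5A1 (946 ± 15.2) and COL3A1 (763 ± 7.43). Per length, COL1A1 stood at 16.7 and 17.0 times BGN, at 34.6 and 35.8 times FMOD, and at 1426 and 1923 times DCN. TLR2 (0.251 ± 0.0156) and TLR4 (0.541 ± 0.102), Toll-like receptors of soluble biglycan, were under 1 FPKM, and P2RX7, a purine receptor that also takes part in biglycan signalling, had 9.47 ± 0.373. Of 14 CSPG4 partners, 13 were detected, against the same 40.9% and 61.5%. The highest were COL6A1 (657 ± 12.6), ITGB1, COL6A2 (636 ± 21.2) and MMP14. COL6A3, the third main chain of type VI collagen, had 3.38 ± 0.149. Of 14 measured transcription regulators named for these genes, 11 were detected, against the same 40.9% and 61.5%. CTNNB1 (192 ± 3.88), EGR1 (48.5 ± 0.854), SMAD4 (17.8 ± 0.122) and SMAD3 (14.9 ± 0.316) were the highest. SOX5 (0.533 ± 0.0340) and SOX6 (0.188 ± 0.0213), partners of SOX9 at ACAN, were not detected.

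Other proteoglycans outside these families give a scale for the members. COL18A1, a basement membrane collagen with heparan sulphate chains, had 229.8 ± 7.96 FPKM, at 1.04 and 1.10 times BGN. HSPG2, the basement membrane core perlecan, had 146 ± 1.24, at 1.45 and 1.43 times CSPG4. ESM1 (57.7 ± 0.477) and AGRN (24.0 ± 0.568) stood above VCAN. Of the 12 measured in this list, 5 were detected, against 40.9% of all identifiers and 61.5% of those with a symbol. SRGN, the core of secretory granules in blood cells, had 0.188 ± 0.00397. Of 6 fibroblast markers, 2 were detected, SFRP2 (47.5 ± 0.143) and PDGFRA (2.24 ± 0.0149), against the same 40.9% and 61.5%. DPT (0.132 ± 0.0133), FAP (0.156 ± 0.0254), CD34 (0 in replicate 1 and 0.00550 in replicate 2) and PI16 (listed at 0) were not detected. The 6 markers had a summed level of 49.9 and 50.1 FPKM. Their part in the level of DCN was not tested.

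**Figure D5:**
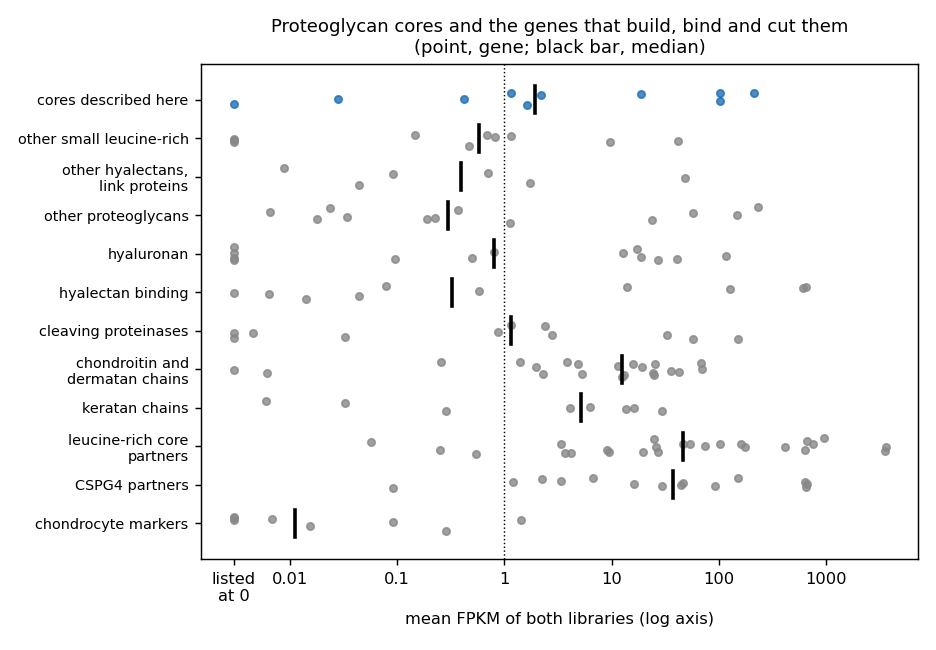
Mean FPKM of both libraries (log axis) for the proteoglycan cores (blue) and for related genes (grey), each point a gene and each black bar the median of its row; the dotted line marks 1 FPKM and genes listed at 0 are drawn at the left. The cores spread from 0 to 215 FPKM, most genes of chondroitin and dermatan chain synthesis lie above 1 FPKM, and 7 of the 8 chondrocyte markers lie below it.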

How the data were processed

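FPKM values, 1 column a library, were deposited by the authors in 1 table. Per the submitters' processing notes, TopHat2 2.0.12, HTSeq 0.6.1 and the build Sscrofa11.1 were used; no release of the annotation, strand setting or filter is given in the sources used here. Per the labels' protocols, TRIzol RNA went into NEBNext Ultra libraries. FPKM depends on the gene model, and without a stated strand setting reads of overlapping genes cannot be told apart.

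Symbols came from a gene name table (14857 identifiers matched) and coordinates from RefSeq. Library totals and whole reads were recovered from FPKM steps: each gene took the shortest length from 50 to 30000 bp giving whole reads in both libraries within 1.2 times the rounding, found for 100% of 16327 genes above 0. They may be a fraction of the true reads, and summed to 90.8% of each total. A simulation of replicate 1 against replicate 2 on 16327 genes drew Poisson reads and took the recovered lengths as true. Both totals came out exact, and the reads of 85.4% of genes came out true. Of 200 genes changed 2-fold, 96.5% were called, as were 5 unchanged genes. The changed genes were drawn from those with 50 or more expected reads in replicate 1. That rate therefore does not cover genes with fewer reads, such as PRELP. Intervals are exact Poisson, at 95%, and cover counting error only, since, with no molecular identifiers, reads are not independent molecules. Python 3.11.15, numpy 2.4.6, pandas 2.3.3, scipy 1.17.1 and matplotlib 3.10.9 were used.

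The members and lists were chosen with earlier results of these data known. All members, the 4 highest genes of each list, all further leucine-rich, hyalectan, link protein and hyaluronan synthase genes, and cell type markers were named. Other named genes (such as ADAMTS5, COL6A3, TLR2, P2RX7, CHST2, FBLN1, CHST1, SOX5, SRGN, ITIH1 and the neighbours of the clusters) were chosen after their values were seen. With 1 group of 2 libraries there is no pattern across conditions to liken genes by. Alternatives changed the detection level, scale, pseudocount, filters, background, expected library ratio and the measure of spread, and left out each library. Some genes of the lists are not reported here.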

Additional observations from a re-analysis of the deposited data

How the results depend on the processing

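The count of 7 detected members was the same at 0.5 FPKM, on the TPM scale and without either replicate (7 to 7). It was 4 at 5 FPKM. Of all identifiers, 44.0% reached 0.5 FPKM and 29.6% reached 5 FPKM. Neither share was computed for identifiers with a symbol. An alternative chosen after seeing the data left out the members whose RefSeq gene overlaps another (ASPN, OGN, PRELP and ACAN). The count of detected members was then 6, which was every member left. This follows from the genes left out, which include every member not detected (OGN, PRELP and ACAN). No share of all identifiers was computed for this alternative. The median of the members ran from 1.46 to 1.61 without a replicate. It was 0.997 with a pseudocount of 0.1 (all identifiers -1.91) and 2.99 among genes of 0.1 FPKM or more (all such identifiers 3.01). The filter leaves out PRELP and ACAN. The share of BGN in the summed level of the members ran from 48.4% to 48.5% without a replicate and was 33.8% of their recovered reads, a measure not per length. The count of members that differed between libraries was 0 with the median ratio of genes, with 10 or more reads and by a fold over 1.5 on the log2(FPKM + 1) scale, which compresses the folds of OGN and PRELP (2.02 and 2.73 as plain ratios), and by these 179, 220 and 195 of all genes were called. By counting error alone, 7 of the 8 neighbouring pairs with reads lay apart. Library differences and neighbour ranges need both libraries, so they have no value without a replicate. No paired analysis was possible because there is 1 group. Depth limits PRELP, with 2 and 5 reads, and gives no limit for ACAN.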
